A study of Homo sapiens with 4 samples.

Results

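The genes described here encode the parts of the desmosome, the cell junction that ties the keratin filaments of neighbouring epithelial cells together. They are 10 listed genes, all found by symbol among the 60649 gene rows of the count table. They comprise the desmosomal cadherins DSG2, DSG3, DSC2 and DSC3, the armadillo proteins JUP, PKP1, PKP2 and PKP3, the plakin DSP and the membrane protein gene PERP. RNA was sequenced from FaDu, a human cell line started from a hypopharyngeal squamous carcinoma, grown in MEM alpha with fetal bovine serum. One group overexpressed TINCR-HA-FLAG, the TINCR gene product joined to HA and FLAG epitope tags, and the other carried an empty vector, with 2 libraries in each group. The sources used here do not give the promoter of the construct, or whether cells were selected or cloned. The series calls the replicates technical, so every p-value and interval reflects only the spread between these libraries.

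In a desmosome, the outer parts of desmogleins and desmocollins bind those of the next cell. Inside the cell, plakoglobin (JUP) and the plakophilins bind the cadherin tails, and desmoplakin (DSP) links them to keratins. DSG2 and DSC2 occur in most tissues with desmosomes, DSG3 and DSC3 mainly in the lower layers of stratified epithelium, and DSG1 and DSC1 in its upper layers. TINCR is known from keratinocytes, where its RNA increases with differentiation.

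The libraries held between 18151424 and 22331602 counts with TINCR-HA-FLAG and between 17069533 and 17315648 with the empty vector. TINCR had 1921 and 2943 counts with TINCR-HA-FLAG, against 68 and 64 with the empty vector, as the labels require. All 7 markers of squamous epithelium were above 3 counts in every library. Their summed level was 4199 to 4826 CPM (counts scaled to a common library size) with TINCR-HA-FLAG, against 5184 to 5939 CPM with the empty vector. Most of it was KRT5, at 3314 and 3837 CPM with TINCR-HA-FLAG, against 4155.5 and 4759 CPM with the empty vector. Of the 7, only CDH1 was higher with TINCR-HA-FLAG, at 409.99 and 426 CPM, against 319.7 and 393 CPM with the empty vector. Marker sums for other cell types were 50.6 to 50.9 CPM with TINCR-HA-FLAG, against 41.8 to 45.9 CPM with the empty vector, for fibroblasts, 9.56 to 13.3 CPM with TINCR-HA-FLAG, against 12.3 to 13.4 CPM with the empty vector, for leukocytes, and 13.5 to 14.3 CPM with TINCR-HA-FLAG, against 10.9 to 11.1 CPM with the empty vector, for endothelium. The fibroblast sum was mostly COL1A1, at 33.6 and 33.6 CPM with TINCR-HA-FLAG, against 26.9 and 24.01 CPM with the empty vector. COL3A1 went the other way, at 5.70 and 5.63 CPM with TINCR-HA-FLAG, against 6.60 and 6.61 CPM with the empty vector. The leukocyte sum was mostly CD14 and LYZ. CD14 had 5.70 and 9.06 CPM with TINCR-HA-FLAG, against 7.76 and 8.55 CPM with the empty vector. LYZ had 3.31 and 3.79 CPM with TINCR-HA-FLAG, against 4.03 and 4.54 CPM with the empty vector. The endothelial sum was mostly VWF, at 13.25 and 12.3 CPM with TINCR-HA-FLAG, against 9.11 and 10.4 CPM with the empty vector. All 6 fibroblast markers, 2 of 6 leukocyte markers and 3 of 5 endothelial markers were above 3 counts in every library. No marker was at 0 in all 4 libraries, though PTPRC, CD3E, KDR and TEK, which define leukocytes or endothelium, had at most 6 counts in any. The part of these differences in the results below was not tested.

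None of the 10 desmosome genes changed past the threshold with TINCR-HA-FLAG (adjusted p under 0.05 over all 18771 genes tested, edgeR quasi-likelihood test). The fit took the libraries as unpaired, and the count changed with the replicate number as a block (last section). All 10 passed the filter on low counts. Over all genes tested, 0.453% were called higher, 0.0959% lower and 0.549% in either direction, so a count of 0 among 10 genes is close to that background. At an unadjusted p under 0.05, edgeR had 1 of the 10 (PKP1), beside 10.2% of all genes, and DESeq2 also had 1 and called 0. The 10 genes were highly expressed, with 1052 to 15674 counts per library and mean levels from the 80.0th to the 99.4th percentile of the genes tested. Their 95% intervals for the log2 fold change, TINCR-HA-FLAG over empty vector, ran from -0.54 at the lowest to 0.31 at the highest. That is inside the bounds of a 1.5-fold change either way, but the intervals cover only the spread between these libraries. In RNA from whole cultures, fewer cells that express a gene and less of its RNA per cell cannot be told apart.

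The cadherins lie together. A stretch of 559 kb on chromosome 18 (GRCh38, 30990008 to 31549008, GENCODE release 29) holds 7 protein-coding genes, all desmosomal cadherins, in the order DSC3, DSC2, DSC1, DSG1, DSG4, DSG3 and DSG2. DSC3 spans 30990008 to 31042815 and DSC2 spans 31058840 to 31102522, both on the minus strand. DSG3 spans 31447795 to 31478702 and DSG2 spans 31498043 to 31549008, both on the plus strand. In FaDu cells the outer genes of this cluster were on and the inner ones nearly silent. DSG1 had 27 and 31 counts with TINCR-HA-FLAG, against 10 and 23 with the empty vector. DSC1 had 2 and 0 counts with TINCR-HA-FLAG, against 1 and 1 with the empty vector. DSG4, known from hair and the uppermost epidermis, had 0 counts in every library, which allows up to 0.13 to 0.18 CPM (3 counts per library, counting error only). The starts of these genes also differ in base composition. The sequences below lie upstream of the RefSeq transcript start and of the GENCODE gene start, and are shown because they set the expressed genes DSG2, DSC3 and DSG3 beside the near-silent DSG1 and DSC1. They come from RefSeq (GRCh38.p14), are written 5′ to 3′ on the strand of the gene, and capitals mark CpG dinucleotides (the letters CG, the same on both strands).
DSG2, chr18:31497927-31498042, plus strand: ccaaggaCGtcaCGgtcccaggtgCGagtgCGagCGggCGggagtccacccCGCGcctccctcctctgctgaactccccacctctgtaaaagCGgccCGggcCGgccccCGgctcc
DSC3, chr18:31042816-31042992, minus strand: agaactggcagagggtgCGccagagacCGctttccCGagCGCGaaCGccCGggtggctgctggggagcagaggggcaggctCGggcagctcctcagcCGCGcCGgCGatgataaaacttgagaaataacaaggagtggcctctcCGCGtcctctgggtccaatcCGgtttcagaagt
DSG3, chr18:31447491-31447740, plus strand: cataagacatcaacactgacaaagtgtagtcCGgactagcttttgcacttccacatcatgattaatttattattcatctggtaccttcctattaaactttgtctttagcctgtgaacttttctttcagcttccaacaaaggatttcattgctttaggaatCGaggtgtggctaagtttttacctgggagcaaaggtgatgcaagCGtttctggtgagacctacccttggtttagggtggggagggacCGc
DSG1, chr18:31317910-31318088, plus strand: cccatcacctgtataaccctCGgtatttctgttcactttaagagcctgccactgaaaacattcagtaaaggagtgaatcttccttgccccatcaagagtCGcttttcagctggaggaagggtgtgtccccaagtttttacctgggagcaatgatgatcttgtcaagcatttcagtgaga
DSC1, chr18:31162857-31163106, minus strand: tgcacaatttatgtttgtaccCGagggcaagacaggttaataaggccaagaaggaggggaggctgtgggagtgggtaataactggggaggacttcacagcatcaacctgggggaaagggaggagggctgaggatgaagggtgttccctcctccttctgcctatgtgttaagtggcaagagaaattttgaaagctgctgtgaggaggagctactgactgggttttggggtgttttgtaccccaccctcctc

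In the full windows of 300 bases around the start (250 before and 50 after), DSG2 had 36 CpG and DSC3 had 25, where 12.7% of the 35116 windows in the RefSeq table had at least as many as DSG2. The 2 windows of DSC2 had 15 and 22. DSG3 had only 6, DSG1 had 3 and DSC1 had 2, while the median of all windows was 14. The expressed gene DSG3 was thus below that median, as were the near-silent DSG1 and DSC1. Among the other desmosome genes, PERP had 43 CpG, DSP 37, PKP1 19 and the 2 windows of JUP 23 and 19. PKP2, PKP3 and DSG4 were not matched in that table. The letters GGGCGG, read on both strands, were in 7 of the 10 windows of the 8 matched genes, beside 45.0% of all windows. TATAAA, read on both strands, was in 0 of the 10, beside 11.5% of all windows. Such matches describe the letters only.

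**Figure D1:**
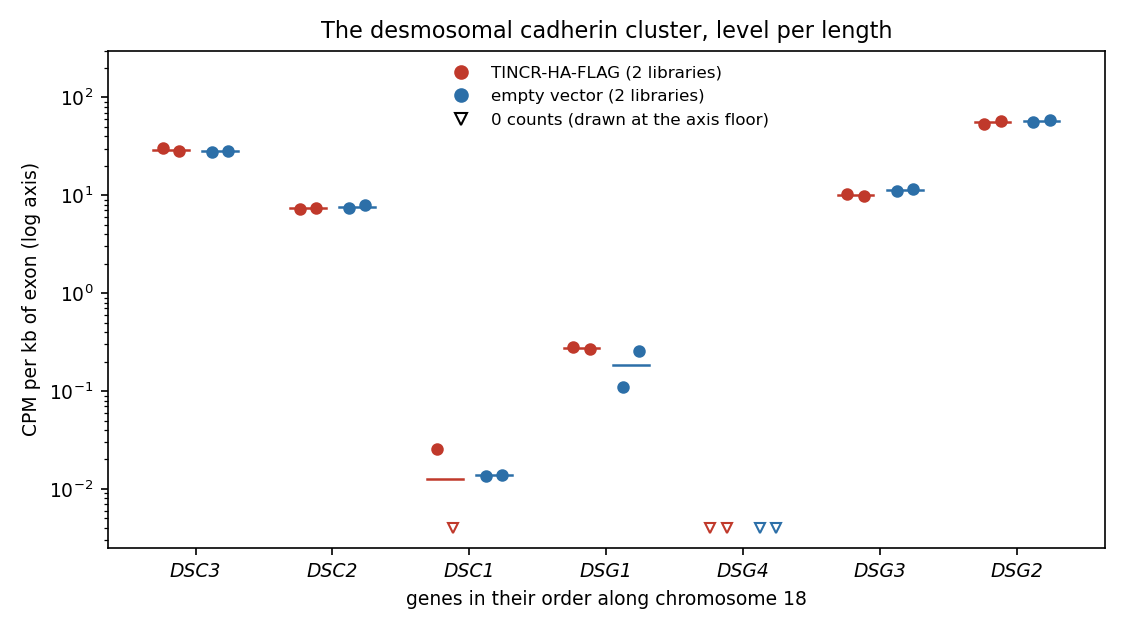
Level per length (CPM per kb of exon, log axis) of the 7 desmosomal cadherin genes in their order along chromosome 18, with TINCR-HA-FLAG libraries left of empty vector libraries. Points are libraries, short lines are group means and open triangles are libraries with 0 counts. DSG2 and DSC3 at the ends are high, DSG1 is low and DSG4 is at 0 throughout.

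DSG2, the widespread desmoglein, had 331 and 358 CPM with TINCR-HA-FLAG, against 346 and 367 CPM with the empty vector. The groups overlapped (log2 fold change -0.05, 95% interval -0.29 to 0.20, edgeR adjusted p = 0.93). DSG3, the desmoglein of lower stratified layers and the target of pemphigus vulgaris antibodies, had 57.1 and 54.9 CPM with TINCR-HA-FLAG, against 61.8 and 64.8 CPM with the empty vector. Both TINCR-HA-FLAG libraries lay below both empty vector libraries, and the difference did not pass the test (log2 fold change -0.18, 95% interval -0.41 to 0.05, edgeR adjusted p = 0.63). An antisense gene, DSG2-AS1, overlaps 171 exonic bases of DSG2, 2.76% of its exon bases, and had 7 to 36 counts per library. How reads in that overlap were assigned is not known, because the strand setting is not given.

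Of the desmocollins, DSC2 had 91.4 and 92.1 CPM with TINCR-HA-FLAG, against 92.4 and 99.3 CPM with the empty vector. The groups did not overlap, by a margin narrower than the spread between the empty vector libraries (log2 fold change -0.06, 95% interval -0.29 to 0.16, edgeR adjusted p = 0.904). DSC3 had 213 and 200.1 CPM with TINCR-HA-FLAG, against 194 and 202 CPM with the empty vector, and was the 1 gene of the 10 with a positive log2 fold change (0.06, 95% interval -0.17 to 0.29, edgeR adjusted p = 0.91). Its groups overlapped, and the sign turned to -0.01 without empty vector replicate 1.

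Between them, the cadherins had opposite leading members. Per kb of exon, DSG2 was 5.25 times DSG3, whereas DSC3 was 3.82 times DSC2, as means over the 4 libraries. DSG2 made up 83.4% and 85.03% of the desmoglein level per length with TINCR-HA-FLAG, against 83.2% and 83.2% with the empty vector. DSC3 made up 80.4% and 79.4% of the desmocollin level with TINCR-HA-FLAG, against 78.8% and 78.3% with the empty vector. Ratios of this kind within a library do not depend on library scaling. The log2 ratio of DSG3 to DSG2 was -2.46 ± 0.12 with TINCR-HA-FLAG and -2.33 ± 0.009 with the empty vector (SD, n = 2 each). That of DSC3 to DSC2 was 1.99 ± 0.07 with TINCR-HA-FLAG and 1.87 ± 0.03 with the empty vector (SD, n = 2 each). All desmogleins over all desmocollins gave 0.85 ± 0.11 with TINCR-HA-FLAG and 0.95 ± 0.01 with the empty vector (SD, n = 2 each). In these 3 ratios the groups did not overlap, yet differences were 0.10 to 0.13 in size. Single libraries moved them: the difference for DSG3 to DSG2 was -0.214 without TINCR-HA-FLAG replicate 1 and -0.041 without TINCR-HA-FLAG replicate 2. For desmogleins to desmocollins it was -0.021 and -0.178 without the same libraries, and for DSC3 to DSC2 it was 0.07 and 0.168. With 2 libraries against 2, a two-sided exact permutation test cannot go below p = 0.333, which each of the 3 had (0.583 adjusted over the 7 ratios compared).

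**Figure D2:**
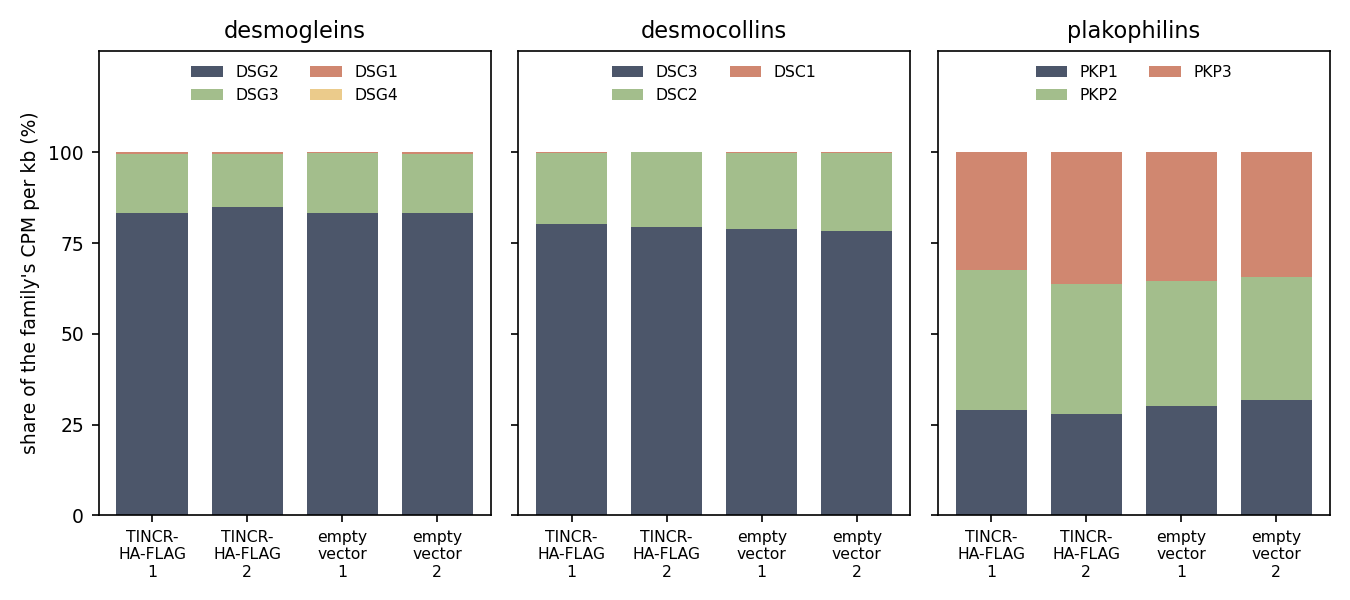
Share of each gene in the summed level per length (CPM per kb of exon, in percent) of the desmogleins, desmocollins and plakophilins, with 1 bar per library and TINCR-HA-FLAG at the left of each panel. DSG2 and DSC3 hold about the same large share in all 4 libraries, and each plakophilin has between 28.01% and 38.6% at this gene length.

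JUP (chromosome 17, 41754604 to 41786931 on the minus strand of GRCh38) encodes plakoglobin, which serves both desmosomes and adherens junctions. It had 571 and 706 CPM with TINCR-HA-FLAG, against 589 and 698 CPM with the empty vector. The libraries of each group lay far apart and the groups covered the same range (log2 fold change -0.01, 95% interval -0.33 to 0.31, edgeR adjusted p = 0.99). Against its close relative CTNNB1, the beta-catenin of adherens junctions, the log2 ratio of level per length was 2.29 ± 0.11 with TINCR-HA-FLAG and 2.22 ± 0.08 with the empty vector (SD, n = 2 each; exact permutation p = 0.667). Both ratios depend on the gene length: with the longest transcript, JUP to CTNNB1 was 1.5 with TINCR-HA-FLAG and 1.44 with the empty vector, and JUP to DSP was 1.33 with TINCR-HA-FLAG and 1.23 with the empty vector. Per kb of the union of exons, JUP to DSP was 0.87 ± 0.34 with TINCR-HA-FLAG and 0.78 ± 0.16 with the empty vector (SD, n = 2 each; exact permutation p = 1.0).

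PKP1 lies on chromosome 1, 201283452 to 201332993 on the plus strand of GRCh38, PKP2 on chromosome 12, 32790745 to 32896840 on the minus strand, and PKP3 on chromosome 11, 392614 to 404908 on the plus strand. PKP1, the plakophilin of suprabasal layers, whose loss in humans causes a skin fragility syndrome, had the largest difference of the 10 genes with all 4 libraries. It had 134 and 152 CPM with TINCR-HA-FLAG, against 156 and 189 CPM with the empty vector. Both libraries with TINCR-HA-FLAG were lower, but the gap between the groups was narrower than the spread within either. The log2 fold change was -0.27 (SE 0.12, 95% interval -0.54 to -0.001), with an unadjusted edgeR p of 0.0495 and an adjusted p of 0.49. The change was -0.18 without TINCR-HA-FLAG replicate 1, -0.37 without TINCR-HA-FLAG replicate 2, -0.44 without empty vector replicate 1 and -0.13 without replicate 2 of that group. DSG3 was further from 0 in the first and last of these, at -0.20 and -0.14, and DSP in the first, at -0.19. PKP2, the plakophilin also found in heart muscle, had 203 and 219 CPM with TINCR-HA-FLAG, against 204 and 228 CPM with the empty vector. PKP3, found in most epithelia, had 91.8 and 119.7 CPM with TINCR-HA-FLAG, against 112 and 125 CPM with the empty vector. Groups overlapped for both, with log2 fold changes of -0.03 (95% interval -0.28 to 0.21) for PKP2 and -0.16 (95% interval -0.46 to 0.14) for PKP3 (edgeR adjusted p = 0.96 and 0.77).

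Each plakophilin held a substantial share, and the shares depended on the gene length used. Per kb of the union of exons, PKP1 held 28.9% and 28.01% of the plakophilin level with TINCR-HA-FLAG, against 30.1% and 31.8% with the empty vector. PKP2 held 38.6% and 35.7% with TINCR-HA-FLAG, against 34.6% and 33.9% with the empty vector, and PKP3 held 32.5% and 36.3% with TINCR-HA-FLAG, against 35.3% and 34.4% with the empty vector. Per kb of the longest transcript, PKP1 held 23.5% and 22.9% with TINCR-HA-FLAG, against 24.8% and 26.2% with the empty vector. PKP2 then held 45.1% and 41.99% with TINCR-HA-FLAG, against 40.9% and 40.2% with the empty vector, the highest share in each library. The log2 ratio of PKP1 to PKP3 was -0.27 ± 0.14 with TINCR-HA-FLAG and -0.17 ± 0.08 with the empty vector (SD, n = 2 each; exact permutation p = 0.667). That of PKP2 to PKP3 was 0.11 ± 0.19 with TINCR-HA-FLAG and -0.03 ± 0.005 with the empty vector (SD, n = 2 each; exact permutation p = 0.333), where the libraries labelled TINCR-HA-FLAG themselves differed by more than the groups did.

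DSP (chromosome 6, 7541575 to 7586717 on the plus strand of GRCh38), which encodes desmoplakin, had 753 and 667 CPM with TINCR-HA-FLAG, against 759 and 769 CPM with the empty vector. Of the TINCR-HA-FLAG libraries, replicate 1 was level with the empty vector and replicate 2 lower (log2 fold change -0.105, 95% interval -0.38 to 0.17, edgeR adjusted p = 0.85). PERP (chromosome 6, 138088505 to 138107511 on the minus strand of GRCh38) encodes a membrane protein that mouse stratified epithelium needs for stable desmosomes. It had 391 and 445 CPM with TINCR-HA-FLAG, against 444 and 510.3 CPM with the empty vector. The groups overlapped only at their edges (log2 fold change -0.19, 95% interval -0.47 to 0.09, edgeR adjusted p = 0.69). With single libraries left out, the log2 fold change of PERP ranged from -0.33 without empty vector replicate 1 to -0.08 without empty vector replicate 2, with -0.09 without TINCR-HA-FLAG replicate 1 and -0.29 without its replicate 2. That of DSP ranged from -0.189 without TINCR-HA-FLAG replicate 1 to -0.026 without TINCR-HA-FLAG replicate 2.

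**Figure D3:**
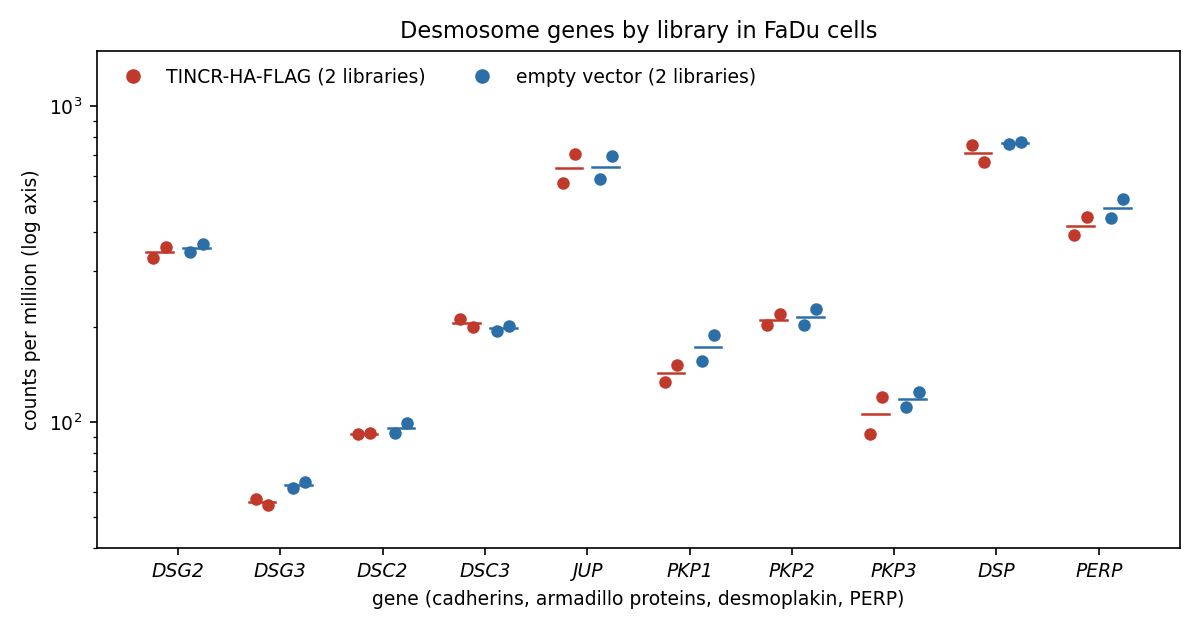
CPM (log axis) of the 10 desmosome genes in each library, with TINCR-HA-FLAG libraries left of empty vector libraries. Points are libraries and short lines are group means. Groups overlap for 6 genes and lie apart, lower with TINCR-HA-FLAG, for DSG3, DSC2, PKP1 and DSP.

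Seen together, 9 of the 10 log2 fold changes were negative, with a median of -0.08, beside 49.3% negative and a median of 0.004 over all genes tested. The groups lay apart for 4 of the 10 (DSG3, DSC2, DSP and PKP1), all lower with TINCR-HA-FLAG, beside 17.9% of all genes, and for 0 in the higher direction, beside 21.7% of all genes. For 8 of the 10, the difference between the group means of log2 CPM was smaller than the wider of the 2 gaps between libraries of 1 group. The exceptions were DSG3, where the difference was -0.18 and the wider gap 0.07, and PKP1, where both were 0.27 after rounding. Such a gap also holds any difference that goes with the replicate number (last section). All 10 genes were higher in replicate 2 than in replicate 1 of the empty vector. With TINCR-HA-FLAG, 7 were, and DSG3, DSC3 and DSP were higher in replicate 1. The count of negative changes moved with the library left out. Leaving out TINCR-HA-FLAG replicate 1 gave 5 and leaving out replicate 2 gave 9. Leaving out empty vector replicate 1 gave 10 and replicate 2 gave 7. Each such fit has unequal replicate numbers in its groups, so a difference between replicate numbers can shift this count. Its part in the shifts was not tested. With library totals in place of TMM scaling the count was 8, since JUP turned to 0.01.

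**Figure D4:**
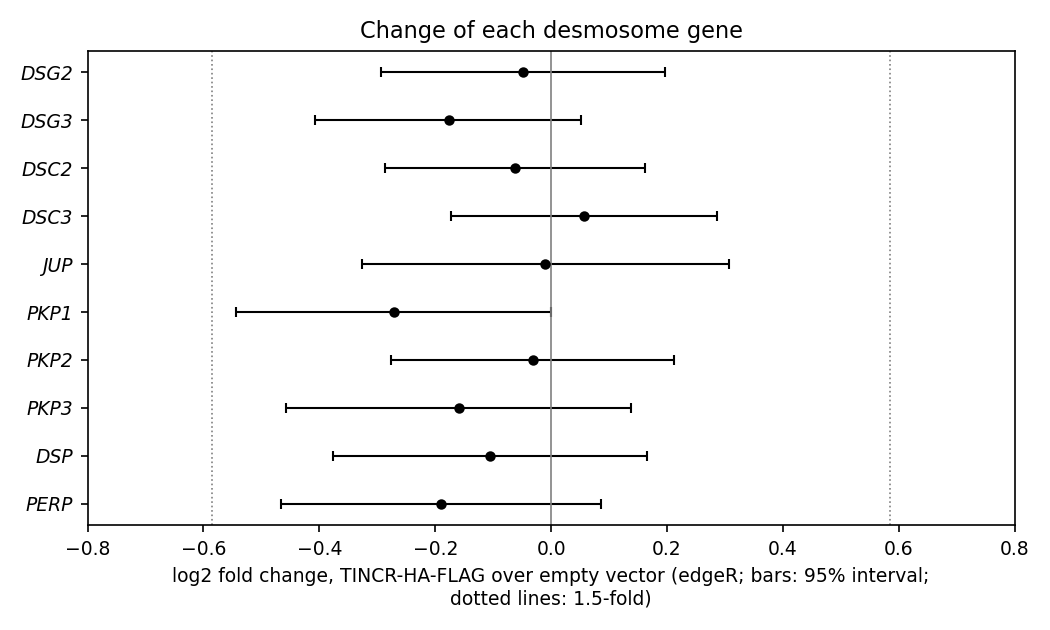
Log2 fold change of each of the 10 desmosome genes, TINCR-HA-FLAG over empty vector, with its 95% interval from the edgeR fit; dotted lines mark a 1.5-fold change. All intervals lie within the dotted lines, and that of PKP1 ends at -0.001, just short of 0.

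By level per length, the mean over the 4 libraries ran from 129.7 CPM per kb for JUP to 7.51 CPM per kb for DSC2, a span of 17.3-fold. The order was JUP, PERP (104 CPM per kb), DSP (73.03), DSG2 (56.7), PKP2 (30.3), PKP3 (29.6), DSC3 (28.7), PKP1 (25.4), DSG3 (10.8) and DSC2. The ranges over libraries overlapped between JUP and PERP, between PKP2 and PKP3, between PKP3 and DSC3 and between DSC3 and PKP1, so these neighbours were not separated beyond their spread. JUP was nonetheless above PERP in each of the 4 libraries. The other neighbours did not overlap. With the longest transcript as the length, all 10 kept their place, although PKP2 then stood at 49.6 CPM per kb and JUP at 183 CPM per kb. The genes sit on chromosomes 1, 6, 11, 12, 17 and 18, and only the cadherins are neighbours.

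The pattern of PKP1 over the 4 libraries was matched most closely by CNPPD1, APP and LRFN4, at Euclidean distances of 0.02, 0.03 and 0.03 between centred log2 CPM values, among 8357 other genes whose log2 CPM averaged 4 or more. The nearest of the other 9 desmosome genes was PERP, at 0.09, with 92 genes nearer. With only 4 libraries and this many genes, near matches can arise without shared regulation, which was not tested.

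Of 9 other desmosome genes listed, 6 were tested, and edgeR and DESeq2 each called 0 (median log2 fold change -0.11). At an unadjusted edgeR p under 0.05 there were 0, and DSC1, DSG4 and CDSN, the corneodesmosin gene of cornified layers, were too low to test. PPL, a plakin of the cornified envelope, had 328 and 367 CPM with TINCR-HA-FLAG, against 370.4 and 392.5 CPM with the empty vector. PNN, which encodes pinin, first described at desmosomes and also known in nuclear speckles, had 187 and 155 CPM with TINCR-HA-FLAG, against 205 and 158 CPM with the empty vector. Their log2 fold changes were -0.13 and -0.09 (edgeR adjusted p = 0.78 and 0.905).

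Of the 9 adherens junction counterparts, all were tested and edgeR and DESeq2 each called 0, with 0 at an unadjusted edgeR p under 0.05 (median log2 fold change -0.02). NECTIN1, an immunoglobulin-like adhesion gene, had 499.8 and 565 CPM with TINCR-HA-FLAG, against 525 and 649 CPM with the empty vector (log2 fold change -0.14, edgeR adjusted p = 0.81). CDH1, the E-cadherin gene, had 409.99 and 426 CPM with TINCR-HA-FLAG, against 319.7 and 393 CPM with the empty vector. Its libraries with TINCR-HA-FLAG were both higher, with a log2 fold change of 0.23 that did not pass the test (95% interval -0.05 to 0.51, edgeR adjusted p = 0.603).

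The keratins that desmosomes anchor did include called genes. Of 13 listed, 12 were tested, and 1 rose and 1 fell past the threshold (median log2 fold change -0.007), while KRT6B was too low to test. DESeq2 called 4, which were these and KRT4 and KRT6A. Over all 18771 genes tested, edgeR called 103 and DESeq2 called 190. KRT13, a suprabasal keratin of non-cornifying epithelium, had 188 and 216 CPM with TINCR-HA-FLAG, against 68.01 and 78.4 CPM with the empty vector (log2 fold change 1.47, SE 0.12, edgeR adjusted p = 0.00057). KRT14, a basal keratin, had 45.9 and 64.2 CPM with TINCR-HA-FLAG, against 108 and 125 CPM with the empty vector (log2 fold change -1.08, SE 0.15, edgeR adjusted p = 0.014), and may share reads with similar keratins. Of 15 regulators and modifiers of desmosomes, all were tested and edgeR and DESeq2 each called 0 (median log2 fold change 0.03). At an unadjusted edgeR p under 0.05 there were 2 (13.3%), close to the 10.2% of all genes tested. ATP2A2, the calcium pump gene of Darier disease, had 873 and 900.3 CPM with TINCR-HA-FLAG, against 853 and 905 CPM with the empty vector (log2 fold change 0.01, edgeR adjusted p = 0.99). EGFR, a receptor whose activity loosens desmosomes, had 887 and 768 CPM with TINCR-HA-FLAG, against 739.8 and 776 CPM with the empty vector (log2 fold change 0.13, edgeR adjusted p = 0.82).

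**Figure D5:**
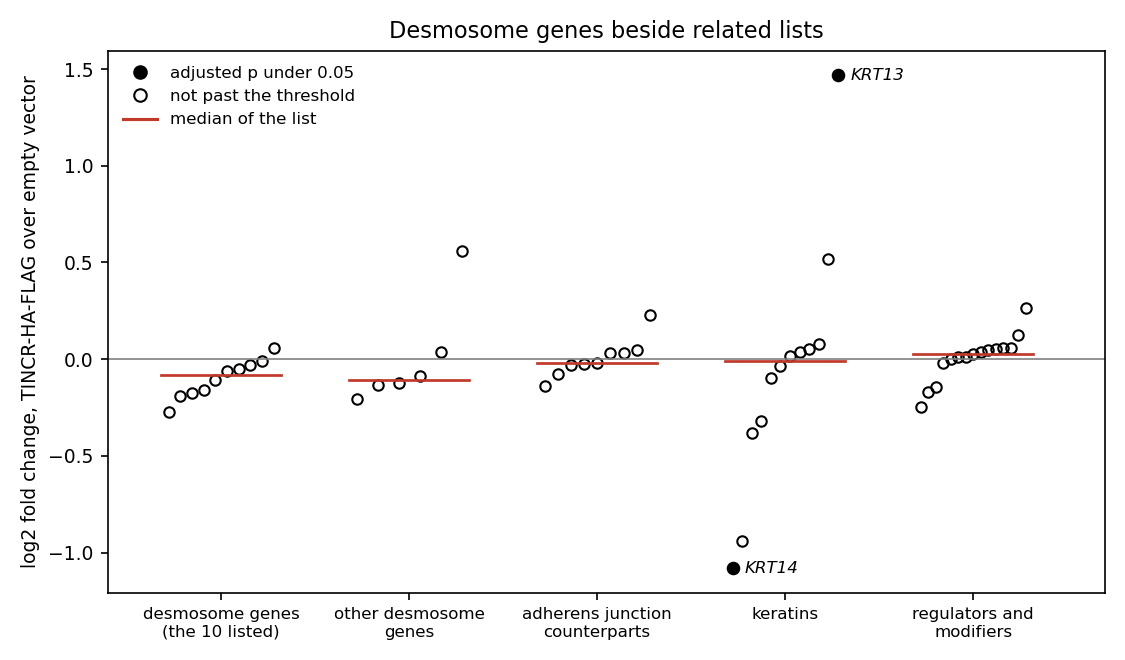
Log2 fold change, TINCR-HA-FLAG over empty vector, of every tested gene in the 10 desmosome genes and 4 related lists. Filled points passed the threshold (adjusted p under 0.05, edgeR), open points did not, and red lines are list medians. KRT13 at 1.47 and KRT14 at -1.08 are the 2 filled points, and the desmosome genes lie between -0.27 and 0.06.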

How the data were processed

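The authors deposited raw counts, whole numbers for each Ensembl gene and library. Per the labels' protocols, RNA came from an RNeasy extraction and libraries from the NEBNext Ultra RNA chemistry. Software in the submitters' processing notes is STAR 2.7.9a, bcl2fastq 2.20.0.422 and DESeq2 1.32.0, with build GRCh38 and no role for each. How reads were counted, with which strand setting and which annotation, is not given in the sources used here. The other 12 library columns belong to no listed sample and stayed out. Of these, 4 carry the same line and construct names with replicate numbers 3 and 4, and what sets them apart is not given in the sources used here. Headers write TINCR where titles have a longer construct name, so each column was assigned by its cell line, construct and number together. Symbols matched 60463 rows and GENCODE release 29 positions 58337 rows.

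Counts were scaled by TMM, filtered with filterByExpr (18771 genes left) and compared by the quasi-likelihood test of edgeR 4.0.16 (robust, non-legacy) under R 4.3.3, with Benjamini-Hochberg adjustment over all genes tested. Each gene had 2 residual degrees of freedom, with a common biological coefficient of variation of 0.118. Level per length is CPM divided by the union of exon lengths in kb. The edgeR and DESeq2 1.42.0 tests were tested on simulated data. The simulated counts had the same dispersion for all genes and no difference by replicate number. They therefore cannot show how the tests behave where such differences exist. Alternatives were DESeq2, RLE factors, library totals, no filter on low counts, at least 1 CPM in 2 or more libraries, dropping TINCR, the legacy dispersion, a block for replicate number, leaving out each library and another gene length. The members, lists and rules were chosen with earlier results of these data known. Named are the 10 genes, TINCR, called genes of each related list or else its 2 most expressed genes, genes too low to test, and the 3 genes nearest in pattern to the member with the largest change. CTNNB1 and DSG1 are named for the ratios and the cluster, and DSG2-AS1, KRT4, KRT6A and single cell type markers were named after their values were seen. The log2 fold change of DSG1 was also added after it was seen. Some genes of the lists are not reported here by name. Replicate libraries of a group differed by more than counting error (chi-square per degree of freedom 16.8 with TINCR-HA-FLAG and 11.7 with the empty vector), and each was entered as 1 sample. Limits from a count of 0 cover counting error alone, because these reads carry no molecular identifiers.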

Additional observations from a re-analysis of the deposited data

How the results depend on the processing

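No desmosome gene was called with DESeq2, RLE factors, library totals, no filter, the CPM minimum, TINCR left out, the legacy dispersion or any library left out. Their lowest adjusted p under these settings lay between 0.22 and 0.95. Over all genes, where 103 were called, the count was 190 with DESeq2, 53 with no filter, 232 without TINCR-HA-FLAG replicate 1, 386 without TINCR-HA-FLAG replicate 2, 124 without empty vector replicate 1 and 172 without replicate 2 of that group. With a library left out, the spread of the lone library is taken from the other group. The cause was not tested. No scaling moved the median log2 fold change of all genes by more than 0.019.

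The replicate numbers are not known to pair libraries, though same-numbered libraries deviated together (correlation over genes 0.37). With the replicate number as a block, 2633 genes were called (14% of those tested), and 2 desmosome genes were among them, both lower: PKP1 (log2 fold change -0.27, edgeR adjusted p = 9.0e-05) and PERP (-0.19, edgeR adjusted p = 0.0018). That is 2 of the 10, not far from the share over all genes tested. The block leaves fewer residual degrees of freedom per gene than the main fit.

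Of 120 repeats of single-gene changes, 8 turned in sign, none of them called. With library totals JUP did (0.008). With single libraries left out, DSG2 ranged from -0.13 to 0.013, DSC3 from -0.013 to 0.095, JUP from -0.178 to 0.14, PKP2 from -0.152 to 0.057 and PKP3 from -0.371 to 0.024. Without TINCR-HA-FLAG replicate 1, DSG2, JUP, PKP2 and PKP3 turned positive, without empty vector replicate 2, JUP and PKP2 did, and without empty vector replicate 1, DSC3 turned negative. Of the 7 ratios, 4 had groups that did not overlap, and 5 to 7 did with single libraries left out, where a lone library has no spread of its own. The difference in log2 ratio then ranged from -0.199 to 0.003 for PKP1 to PKP3, from -0.146 to 0.335 for JUP to DSP and from -0.01 to 0.138 for JUP to CTNNB1. All 10 genes kept their place in the order of levels per length with another gene length, and 8 to 10 with single libraries left out.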
